A study of Homo sapiens with 4 samples.

Results

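The genes described here encode the kinase that releases paused RNA polymerase II, the particle that holds this kinase inactive and the complex in which it works on chromatin. They are 10 genes named for these roles, with no threshold on their values, and all 10 were found by Ensembl identifier among the 64252 genes of the count table. CDK9, CCNT1 and CCNT2 encode the kinase P-TEFb, HEXIM1 and HEXIM2 its inhibitors, LARP7 and MEPCE the proteins of the 7SK particle, and AFF1, AFF4 and ELL2 subunits of the super elongation complex. RNA-seq was performed on cells labelled NB4, after 24 h with 8 μM dBET1 (2 libraries) or with DMSO as the control (2 libraries). NB4 is known as an acute promyelocytic leukemia cell line with the PML-RARa fusion, but the counts described below do not carry the promyelocyte marker pattern. dBET1 is a PROTAC that links a ligand of the BET bromodomain proteins to one of CRBN, an adaptor of an E3 ubiquitin ligase. All libraries came from the same cell line with no genetic change between the groups. The study's methods say in general that experiments were repeated independently, but not whether the 2 libraries of a group came from separate cultures, so the p-values measure the spread between these libraries, which may be technical.

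RNA polymerase II pauses shortly after it starts a gene, held by the factors DSIF and NELF. P-TEFb, made of CDK9 and cyclin T1 or cyclin T2, phosphorylates these factors and the tail (CTD) of the polymerase, and elongation follows. Much of the P-TEFb of a cell is kept inactive by HEXIM proteins on the noncoding 7SK RNA, whose ends are guarded by MEPCE and LARP7. The super elongation complex brings active P-TEFb to genes, and AFF1, AFF4 and ELL are known in leukemia as fusion partners of MLL. HEXIM1 mRNA has been used as a response marker of BET bromodomain inhibitors.

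The sequences below show what the 7SK proteins hold and the starts of the genes at which the results turn. The 7SK RNA (RN7SK, chromosome 6 of hg38, 52995620 to 52995950, forward strand) is 331 bases long in GENCODE and is printed as DNA. The first 100 bases, with GATC in capitals, hold all 3 copies of this motif, the type of sequence that HEXIM1 binds in the 5′ hairpin. The last 40 bases, from position 292, end in a run of 3 T in capitals, and LARP7 binds such a uridine end.
7SK 5′ end: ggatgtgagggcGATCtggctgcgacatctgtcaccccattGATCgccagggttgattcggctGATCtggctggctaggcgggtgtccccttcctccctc
7SK 3′ end: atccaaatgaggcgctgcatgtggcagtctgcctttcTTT

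The promoters of HEXIM1, HEXIM2 and AFF4 are shown because the first gene did not pass the test while its neighbor and AFF4 did. Each is the 250 bases before a RefSeq start (GRCh38.p14), read along the gene. Capitals mark, on either strand, the letters TATAAA as in TATA boxes, the CCAAT box, the letters GGGCGG as in GC boxes and the E-box of MYC, searched as CACGTG. In these promoters matches do not overlap. HEXIM2 has 2 starts in RefSeq, and counts per gene do not tell them apart.
HEXIM1, chr17:45148225-45148474, forward strand: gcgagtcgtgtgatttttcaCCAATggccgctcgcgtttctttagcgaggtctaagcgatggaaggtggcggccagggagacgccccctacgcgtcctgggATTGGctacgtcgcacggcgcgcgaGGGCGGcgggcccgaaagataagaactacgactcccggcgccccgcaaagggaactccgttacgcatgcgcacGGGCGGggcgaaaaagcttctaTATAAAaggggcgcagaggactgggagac
HEXIM2, chr17:45159924-45160173, forward strand: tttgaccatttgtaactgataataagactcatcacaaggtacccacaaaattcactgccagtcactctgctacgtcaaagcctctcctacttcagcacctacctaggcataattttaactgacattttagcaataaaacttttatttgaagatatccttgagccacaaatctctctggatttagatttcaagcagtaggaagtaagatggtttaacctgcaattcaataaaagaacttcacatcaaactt
HEXIM2, chr17:45161625-45161874, forward strand: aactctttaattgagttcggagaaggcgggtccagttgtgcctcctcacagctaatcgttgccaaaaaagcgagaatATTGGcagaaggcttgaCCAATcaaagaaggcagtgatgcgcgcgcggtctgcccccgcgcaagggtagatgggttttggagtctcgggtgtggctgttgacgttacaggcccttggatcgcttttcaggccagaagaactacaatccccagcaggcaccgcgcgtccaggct
AFF4, chr5:132963635-132963884, reverse strand: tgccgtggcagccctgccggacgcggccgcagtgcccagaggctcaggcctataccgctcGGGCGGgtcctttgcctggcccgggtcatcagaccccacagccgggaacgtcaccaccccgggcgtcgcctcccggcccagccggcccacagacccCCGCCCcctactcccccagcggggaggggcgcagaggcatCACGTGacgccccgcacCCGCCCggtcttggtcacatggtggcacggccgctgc

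RefSeq promoters were found for 9 of the 10 genes, 15 promoters in all, and not for ELL2. TATAAA was present in 1 of the 15, that of HEXIM1, and in 10.7% of 35116 promoters in the table. CCAAT was present in 8 of the 15 (32.0% of all promoters), GGGCGG in 10 (42.6%) and CACGTG in 3 (6.34%), 1 each for CCNT1, MEPCE and AFF4. A match says only that these letters are in the window.

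The libraries held 28019956 to 34685645 counts, and TMM factors ran from 0.918 to 1.08. With edgeR's quasi-likelihood test 17971 genes were tested, among them all 10 genes described here. The count table does not carry the marker pattern of promyelocytes. ELANE and CTSG had 0 counts in every library, MPO rose from 0 counts in both DMSO libraries to 22 and 10 counts, and the 7 promyelocyte markers together reached 11.5 and 13.1 CPM (counts per 1000000 of the TMM-adjusted library size) with DMSO and 13.2 and 11.8 CPM with dBET1. The 12 erythroid markers reached 6437 and 7780 CPM with DMSO and 3807 and 3719 CPM with dBET1, and 11 of the 12 fell at an adjusted p under 0.05. The part of this difference in the results below was not tested. In such bulk samples fewer cells of a type and less RNA per cell cannot be told apart. The name NB4 follows the labels, and whether the cells are NB4 was not tested.

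Of the 10 genes, 3 rose after dBET1 (HEXIM2, AFF1 and AFF4), 2 fell (LARP7 and MEPCE) and 5 did not pass the test (HEXIM1, CDK9, CCNT1, CCNT2 and ELL2), at an edgeR adjusted p under 0.05. Over all tested genes 28.0% rose and 27.6% fell, so that 55.6% changed in either direction, and the 10 genes were called about as often as other genes. None of the 10 (0 genes) was also past a 2-fold change, the limit of 1 on the log2 scale used in the study's methods, against 25.4% of all tested genes (16.9% higher and 8.54% lower), and the count was also 0 with DESeq2. In 5 of the 11 alternatives 1 gene, HEXIM2, was past this limit. The median of the absolute log2 fold changes was 0.30 for the 10 genes and 0.60 for all tested genes. These comparisons are not matched for abundance. In abundance decile 1, the lowest, 844 of 1797 genes rose and 65 fell past the 2-fold limit. In decile 8, 65 rose and 171 fell past it, and in decile 9, 33 and 223, of 1797 genes each. In decile 10, 24 rose and 264 fell past it, of 1798 genes. Of the 10 genes 8 lay in deciles 8 to 10. The CPM of the groups did not overlap for 8 of the 10, the exceptions being HEXIM1 and ELL2, against 79.3% of all tested genes.

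**Figure D1:**
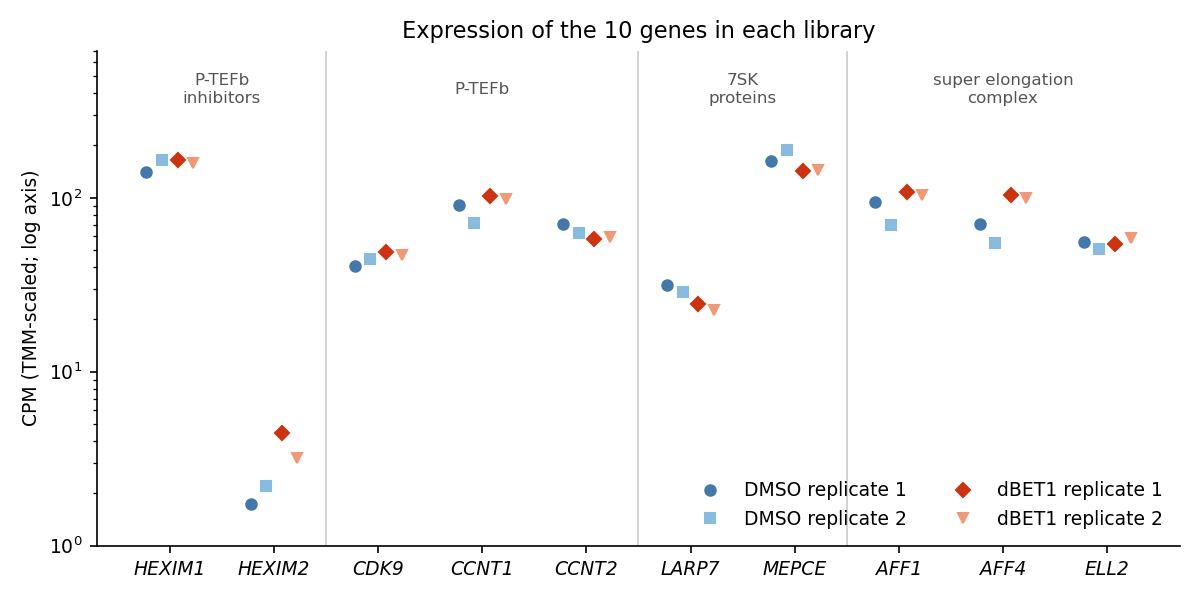
CPM (TMM-scaled, log axis) of the 10 genes in the 4 libraries, with 1 point for each library. HEXIM2 lies between 1.75 and 4.46 CPM, far below the other 9 genes, and the DMSO points of CCNT1, AFF1 and AFF4 are farther apart than their dBET1 points.

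HEXIM1, which binds 7SK RNA and blocks the kinase of P-TEFb, was nearly level between the groups. It is a gene of 1 exon on chromosome 17 of hg38 (45148475 to 45152099, forward strand), and its exon is its whole transcript. HEXIM1 reached 140 and 164 CPM with DMSO (4579 and 4610 counts) and 164 and 158 CPM with dBET1 (4925 and 4835 counts). The DMSO libraries were thus farther apart than the group means, 152 ± 16.8 and 161 ± 4.04 CPM (SD, n = 2 in each group). The log2 fold change of HEXIM1 was 0.084 with a standard error (SE) of 0.092 (edgeR adjusted p = 0.465), and its 95% interval ran from -0.13 to 0.30, a fold of 0.914 to 1.23. A doubling of HEXIM1 at this time point therefore lies outside the interval. Without DMSO replicate 2 the log2 fold change was 0.17 (edgeR adjusted p = 0.0365), and without DMSO replicate 1 it was -0.052.

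HEXIM2, the second inhibitor of P-TEFb, lies 8600 bp downstream of HEXIM1 on the same strand (chromosome 17, 45160700 to 45170040). With DMSO it had 57 and 62 counts, 1.75 and 2.21 CPM, and after dBET1 134 and 98 counts, 4.46 and 3.21 CPM. Both dBET1 libraries were above both DMSO libraries. HEXIM2 rose by a log2 fold change of 0.96 (SE 0.289, edgeR adjusted p = 0.0233), with a wide 95% interval of 0.29 to 1.63. It did not pass without dBET1 replicate 1 (0.70, adjusted p = 0.175) or without DMSO replicate 1 (0.77, adjusted p = 0.0624), and with DESeq2 the adjusted p was 0.0860. With no count filter HEXIM2 did not pass either (0.90, edgeR adjusted p = 0.0783), so that it was called in 7 of the 11 alternatives. Genes in its abundance decile, the fourth from the bottom, had a median log2 fold change of 0.26, and 33.8% of them rose.

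The 3 genes of the kinase itself did not pass the test with TMM. CDK9, the catalytic subunit (chromosome 9, 127785679 to 127790792, forward strand), reached 40.8 and 44.6 CPM with DMSO and 48.9 and 47.0 CPM with dBET1. Its log2 fold change was 0.17 with a 95% interval of -0.050 to 0.38 (edgeR adjusted p = 0.163). The cyclin genes lay on opposite sides of 0. CCNT1, which encodes cyclin T1 (chromosome 12, 48688458 to 48716998, reverse strand), reached 91.1 and 71.7 CPM with DMSO and 102 and 98.6 CPM with dBET1. The DMSO libraries of CCNT1 differed by more than the dBET1 libraries did, and the log2 fold change of 0.30 (SE 0.117) had an edgeR adjusted p of 0.0587. Without DMSO replicate 1 CCNT1 passed at 0.46 (adjusted p = 0.00026), and without DMSO replicate 2 it was at 0.11. It was called in 5 of the 11 alternatives, also with at least 10 counts in every sample (0.37, edgeR adjusted p = 0.0232), with counts divided by 2 (0.33, edgeR adjusted p = 0.0345) and with the replicate block (0.31, edgeR adjusted p = 0.0273). CCNT2, which encodes cyclin T2 (chromosome 2, 134918235 to 134959342, forward strand), reached 70.3 and 62.4 CPM with DMSO and 58.2 and 59.5 CPM with dBET1. Its log2 fold change was -0.17 (SE 0.093, edgeR adjusted p = 0.147), and it passed only without DMSO replicate 2, at -0.29 (adjusted p = 0.00859).

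Both protein genes of the 7SK particle were lower after dBET1. LARP7, which binds the 3′ end of 7SK (chromosome 4, 112637077 to 112657696, forward strand), had 31.6 and 28.7 CPM with DMSO and 24.6 and 22.5 CPM with dBET1. LARP7 fell by 0.36 on the log2 scale (SE 0.114, edgeR adjusted p = 0.0301), to 0.781 of its DMSO level. MEPCE, the methyltransferase that caps the 5′ end of 7SK (chromosome 7, 100428322 to 100434126, forward strand), had 163 and 189 CPM with DMSO and 142 and 144 CPM with dBET1. MEPCE fell by 0.30 on the log2 scale (SE 0.089, edgeR adjusted p = 0.0231), to 0.814 of its DMSO level. All 4 pairs of a DMSO and a dBET1 library showed this direction for both genes. The groups did not overlap for 79.3% of all tested genes either. The calls did not hold when either dBET1 library was left out, with LARP7 at -0.43 and -0.31 (adjusted p = 0.0908 and 0.199) and MEPCE at -0.29 and -0.33 (adjusted p = 0.155 and 0.113), and that of LARP7 also not without DMSO replicate 1 (-0.31, adjusted p = 0.0516). With total counts as the only scaling neither passed, at -0.15 and -0.086. Neither passed with at least 10 counts in every sample (-0.29 and -0.23, edgeR adjusted p = 0.0588 and 0.0613). LARP7 also did not pass with no count filter (-0.41, edgeR adjusted p = 0.0536). In all, LARP7 was called in 5 of the 11 alternatives and MEPCE in 7.

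The 7SK RNA itself was counted at a low level. With DMSO it had 47 and 43 counts, 1.44 and 1.53 CPM, and after dBET1 107 and 69 counts, 3.57 and 2.26 CPM. RN7SK rose by a log2 fold change of 0.97 (SE 0.321, edgeR adjusted p = 0.0336). 7SK has no poly(A) tail and many near-identical pseudogenes, so this level depends on how the libraries were made and the reads assigned. Of 15 listed RNAs without a poly(A) tail, 4 passed the count filter. Among them the signal recognition particle RNAs RN7SL1 and RN7SL2 had log2 fold changes of -0.48 and -1.40 and passed the test. RPPH1 did not pass the test. Of those not tested, RNU4-1 went from 0 and 0 counts with DMSO to 9 and 8 with dBET1. RNU4-2 went from 1 and 0 to 6 and 6, and RNU5A-1 from 1 and 0 to 13 and 6. RMRP went the other way, from 4 and 6 to 1 and 0. The others not tested had 0 to 5 counts in a library, and their groups overlapped except for RNU1-2 (3 and 2 to 5 and 4). Counts this near 0 do not settle a direction. In abundance deciles 3 and 4, which hold genes at levels like that of RN7SK, 33.7% and 33.8% of the genes rose.

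AFF4 had the largest change among the well-counted genes of the 10. AFF4, the scaffold of the super elongation complex that binds P-TEFb (chromosome 5, 132875395 to 132963634, reverse strand), reached 70.4 and 54.7 CPM with DMSO and 104 and 100.01 CPM with dBET1. Both dBET1 libraries lay well above both DMSO libraries. AFF4 rose by a log2 fold change of 0.71 (SE 0.121, edgeR adjusted p = 0.00188), a fold of 1.63 with a 95% interval of 1.34 to 1.98. It passed the test in all 11 alternatives, at 0.51 to 0.91, with the lowest value without DMSO replicate 2. In its abundance decile, the ninth, 16.8% of the genes rose, 54.3% fell and the median log2 fold change was -0.33.

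Its paralog AFF1, the other scaffold (chromosome 4, 86935002 to 87141039, forward strand), had 94.1 and 70.1 CPM with DMSO and 108 and 103 CPM with dBET1. AFF1 rose by a log2 fold change of 0.36 (SE 0.132), with an edgeR adjusted p of 0.0473, close to the threshold. Without DMSO replicate 2 it was at 0.14 (adjusted p = 0.111), without DMSO replicate 1 at 0.57, without dBET1 replicate 1 at 0.33 (adjusted p = 0.178) and without dBET1 replicate 2 at 0.38 (adjusted p = 0.111). The call was also lost with no count filter (0.31, edgeR adjusted p = 0.241) and with DESeq2 size factors in edgeR (0.35, adjusted p = 0.0505), so that AFF1 was called in 6 of the 11 alternatives. ELL2, an elongation factor that raises the rate of the polymerase (chromosome 5, 95885098 to 95961851, reverse strand), had 55.9 and 50.9 CPM with DMSO and 53.9 and 58.8 CPM with dBET1. The groups overlapped, and the log2 fold change of ELL2 was 0.077 with a 95% interval of -0.14 to 0.30 (edgeR adjusted p = 0.519).

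**Figure D2:**
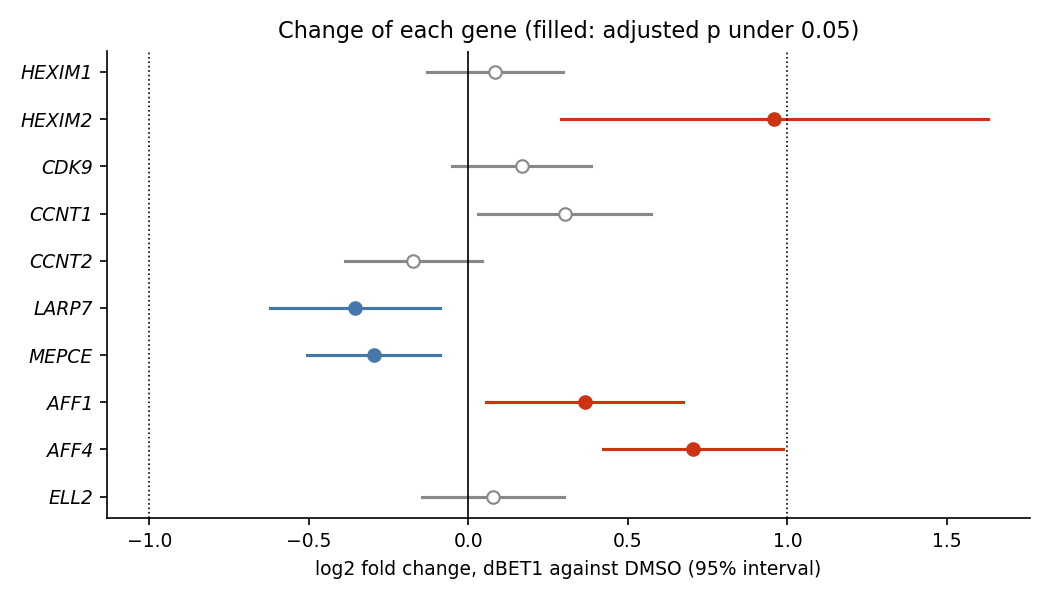
Log2 fold change of the 10 genes, dBET1 against DMSO, with 95% intervals from edgeR's quasi-likelihood fit. Filled points passed an adjusted p of 0.05 (red higher, blue lower), and all 10 points lie inside the dotted lines at -1 and 1.

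The median difference between the DMSO libraries followed transcript length over the tested genes, a point examined after the values were seen. In DMSO replicate 1 the log2 CPM of AFF1 was 0.42 above that in DMSO replicate 2, that of AFF4 0.36 and that of CCNT1 0.35, and their main transcripts are 9261, 9536 and 6788 bases long. For HEXIM1 and MEPCE, at 3625 and 2822 bases, the same difference was -0.23 and -0.21. LARP7 did not follow this order, with a main transcript of 2107 bases and a difference of 0.14. CCNT2, at 6920 bases, was at 0.17, below CCNT1. Over the tested genes with a main transcript in GENCODE, the difference had a median of -0.095 for transcripts of up to 2 kb (6311 genes). For those over 6 kb (2248 genes) it was 0.17, while the dBET1 libraries differed by medians of 0.021 and 0.0041. Transcripts of 2 to 4 kb (5341 genes), a range that includes HEXIM1 and MEPCE, had a DMSO median of -0.0020. Both genes lay well below that median. The median log2 fold change after dBET1 was 0.042 for the short and 0.18 for the long transcripts. The part of length in the changes of AFF1, AFF4 and CCNT1 was not tested.

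Of the 10 genes 8 lay in the upper abundance deciles, where most calls were falls. In deciles 8 to 10 (5392 genes), 17.4% of the genes rose, 53.1% fell and the median log2 fold change was -0.30. Within this range MEPCE fell, AFF1 and AFF4 rose, and HEXIM1, CDK9, CCNT1, CCNT2 and ELL2 did not pass the test. In the decile of HEXIM1 and MEPCE, the highest, 61.0% of the genes fell and the median was -0.39.

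**Figure D3:**
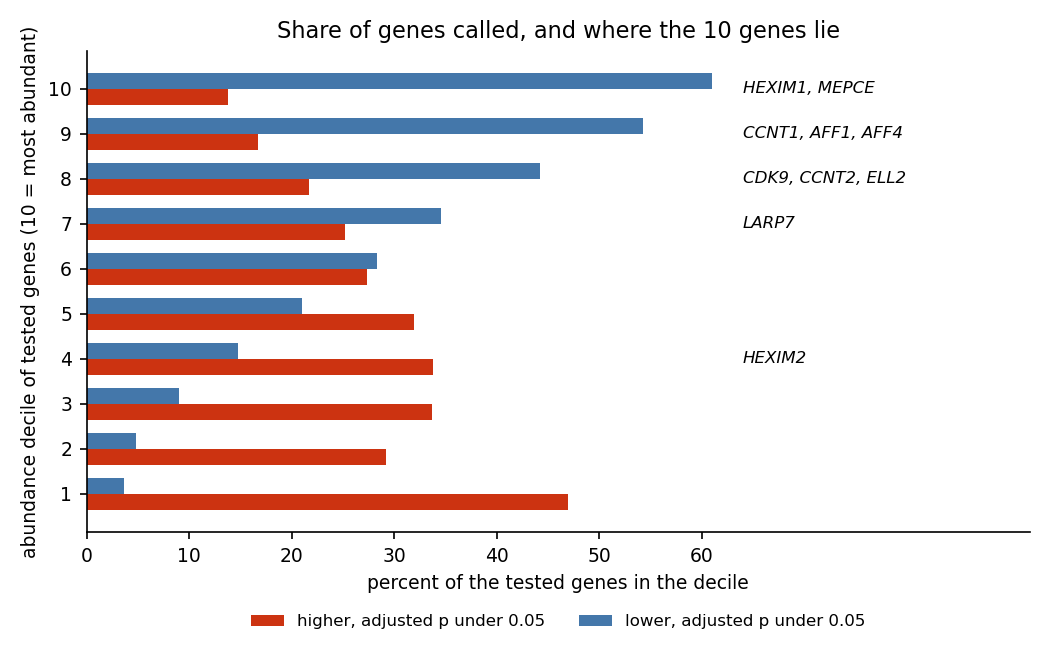
Percent of tested genes that were higher (red) or lower (blue) at an adjusted p under 0.05 in each abundance decile, with the 10 genes written beside their decile. Rises were 47.0% and falls 3.62% in the lowest decile, against 13.8% and 61.0% in the highest, where HEXIM1 and MEPCE lie.

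Levels of different genes were compared per kilobase of exon. With DMSO the order was MEPCE (52.2 ± 5.45 CPM per kb), HEXIM1 (42.0 ± 4.63), CDK9 (14.2 ± 0.902), CCNT1 (11.0 ± 1.87), ELL2 (7.51 ± 0.492), AFF1 (7.50 ± 1.55), CCNT2 (7.31 ± 0.614), AFF4 (5.55 ± 0.982), LARP7 (3.72 ± 0.252) and HEXIM2 (0.984 ± 0.162; SD, n = 2 for each). ELL2, AFF1 and CCNT2 did not differ beyond their spread. With dBET1 HEXIM1 was first and MEPCE next, at 44.5 ± 1.11 and 42.5 ± 0.564 CPM per kb, followed by CDK9 at 16.0 ± 0.440 and CCNT1 at 13.6 ± 0.351. AFF4, at 9.05 ± 0.258, was then next to AFF1 at 9.66 ± 0.314. Most places rest on the length used. With DMSO only MEPCE, HEXIM1, CDK9 and HEXIM2 kept theirs with the length of the main transcript. CCNT2 was then ahead of ELL2 and AFF1, at 9.59, 9.16 and 8.87 CPM per kb. With the length of the main transcript MEPCE was ahead of HEXIM1 also with dBET1, at 50.7 and 44.5 CPM per kb. LARP7 moved most, since its exons add up to 8094 bases but its main transcript has 2107, with which it ranked 4 of 10 with DMSO.

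Ratios within a library do not depend on the scaling between libraries. The ratio of HEXIM1 to HEXIM2 per kilobase was 44.5 and 41.2 with DMSO and 20.4 and 27.3 with dBET1. That of CCNT1 to CCNT2 was 1.60 and 1.41 with DMSO and 2.16 and 2.04 with dBET1, a log2 difference of 0.48 where the spread between replicates was 0.097. The ratio of AFF1 to AFF4 was 1.38 and 1.32 with DMSO and 1.07 and 1.06 with dBET1, a log2 difference of -0.34 where the spread was 0.031. The groups did not overlap in these 3 ratios. The share of other gene pairs without overlap was not counted, and the CPM of single genes did not overlap for 79.3% of all tested genes. A difference in a ratio also restates the changes of its genes given above. The ratio of both HEXIM genes together to CDK9 was 2.92 and 3.12 with DMSO and 2.92 and 2.90 with dBET1, and the groups overlapped. With 2 libraries against 2 an exact permutation test cannot go below p = 0.333, so no test was made of the ratios.

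The other genes of elongation were counted in 9 lists of 67 genes, of which 65 were tested. Of these, 35 fell and 6 rose at an edgeR adjusted p under 0.05, against 27.6% and 28.0% of all tested genes, and 10 fell and 1 rose past the 2-fold limit. The median log2 fold change of the lists was -0.34, that of the 10 genes above 0.13 and that of all tested genes 0.048. Of the 65 genes 50 lay in abundance deciles 8 to 10, where 53.1% of all tested genes fell and 17.4% rose. Falls among the 65 were about as frequent as in those deciles, and rises were less frequent. The 65 include genes of lower deciles, where falls were rarer, and calls among the 50 alone were not counted. The counts by list below are to be read beside these shares. With total counts as the only scaling 25 of the 65 fell and 13 rose.

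The proteins that bind 7SK, release P-TEFb from it or bring it to chromatin had the most falls, 8 of 9 genes. Of all tested genes 27.6% fell, and of those in the highest abundance decile 61.0%. HNRNPA2B1, one of the hnRNP proteins found on 7SK after P-TEFb has left, went from 1706 and 1784 CPM to 475 and 492 CPM, a log2 fold change of -1.85. HNRNPA1, another of them, had the smallest fall at -0.59. DDX21, a helicase that releases P-TEFb from 7SK, fell by 1.30 on the log2 scale, the RNA-binding protein gene SYNCRIP by 1.14 and the phosphatase gene PPM1G, whose product also frees P-TEFb, by 1.00.

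Of the other subunits of the super elongation complex, 2 of 6 tested genes fell. MLLT3, whose product AF9 reads acylated histones, went from 20.1 and 17.9 CPM to 5.26 and 5.63 CPM, a log2 fold change of -1.80, while its paralog MLLT1 was at -0.34. AFF2 had 0 counts in every library and AFF3 at most 4, so that neither was tested. Among other kinases of the CTD and their cyclins 4 of 6 fell, with log2 fold changes from -0.60 for CCNH, the cyclin of CDK7, to -0.37 for CDK12.

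The pausing factors DSIF and NELF had 4 falls among 6 genes, from -1.03 for NELFCD to -0.27 for SUPT4H1. In the PAF1 complex, SPT6 and FACT, which travel with the polymerase, 7 of 10 genes fell and 2 rose. SSRP1, a FACT subunit, fell by 1.23 on the log2 scale, while CTR9 of the PAF1 complex was at 0.30 and SUPT6H at 0.21. Of the elongin and TFIIS genes 4 of 5 fell, from -1.01 for ELOA to -0.65 for ELOB.

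Of the 6 rises 3 were among the phosphatases of the CTD, a list of 6 genes. CTDSP2 went from 154 and 149 CPM to 286 and 279 CPM, a log2 fold change of 0.90, and RPAP2 was at 0.59. CTDSPL went from 0 and 3 counts to 33 and 29 counts, a ratio of 20.7 with a counting interval (95%, exact) of 6.77 to 103. The counts of CTDSPL are low, and among tested genes of low abundance rises were common, 47.0% in the lowest decile. SSU72, another of these phosphatases, fell by 1.03 on the log2 scale. In the little elongation complex ZC3H8 rose by a log2 fold change of 0.27 while ICE1 and ICE2 did not pass the test. Of 14 Integrator genes 5 fell, from -1.14 for INTS10 to -0.31 for INTS7.

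**Figure D4:**
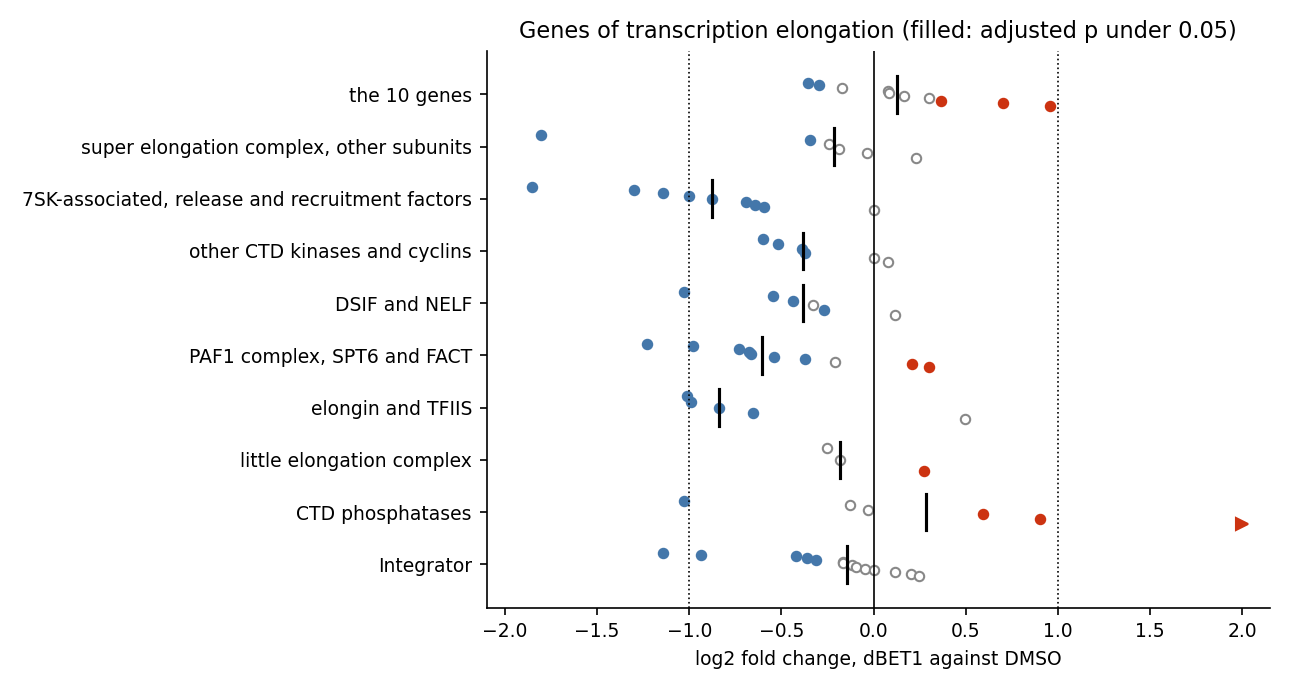
Log2 fold change, dBET1 against DMSO, of the 10 genes (top row) and of 65 other tested genes of elongation in 9 lists, with 1 point per gene, filled where the adjusted p was under 0.05, and a black bar at each median. The median of the factors that bind 7SK or release P-TEFb is -0.88, and the triangle at the right edge stands for CTDSPL, at 4.25 in the fit.

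Around the 10 genes, 28 other genes with at least 1 count lay within 20 kb, and 8 of the 18 that were tested rose while 4 fell, where 28.0% and 27.6% of all tested genes did. Rises were more frequent among genes of low counts, at 47.0% in the lowest abundance decile. HEXIM1 stood between neighbors that rose. ACBD4, which ends 4293 bp before HEXIM1 on the same strand, went from 3.71 and 4.80 CPM to 11.6 and 10.2 CPM, a log2 fold change of 1.36 (edgeR adjusted p = 0.00107). The lncRNA gene ENSG00000276728 lies on the other strand, 4 bp from HEXIM1, and it went from 1.07 and 0.818 CPM to 3.23 and 3.34 CPM, a log2 fold change of 1.79 (edgeR adjusted p = 0.0016). HEXIM2-AS1, which overlaps the ends of both HEXIM genes that face each other on the opposite strand, went from 1 and 2 counts to 19 and 11 counts. These neighbors are far less abundant than HEXIM1.

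Genes that overlap one of the 10 numbered 9, all on the opposite strand, and had 0 to 107 counts in a library. The use of strand in the counting is not stated, so reads from the stretch that HEXIM2 and HEXIM2-AS1 have in common cannot be told apart. The highest count was that of ZCWPW1, which overlaps MEPCE by 671 bp and had 63 and 53 counts with DMSO and 68 and 107 with dBET1, against at least 4256 for MEPCE. CCNT2-AS1, with 478 bp in common with CCNT2, had 40 and 27 counts with DMSO and 50 and 25 with dBET1, and the pseudogene TECRP1 inside AFF1 had 25 and 30 with DMSO and 11 and 27 with dBET1. The lncRNA gene ENSG00000267288 at the end of HEXIM2 had 0 and 12 counts with DMSO and 3 and 11 with dBET1. MIR302C and MIR302CHG in LARP7, and a Y_RNA gene and EEF1A1P50 in AFF4, had at most 3 counts.

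The pattern of HEXIM1 over the 4 libraries, as centered log2 CPM, was nearest to those of TYMP, SLC25A4, IQCE, FN3KRP and LAMTOR2 among 12508 coding genes, at Euclidean distances of 0.013 to 0.031. All 5 had log2 fold changes between 0.065 and 0.10, and each was lowest in DMSO replicate 1, as HEXIM1 was. Both follow from choosing these genes by their nearness to HEXIM1 in the same libraries. The likeness rests on 4 libraries and was not tested.

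Directions near 0 depended on the scaling. With total counts as the only scaling, the median log2 fold change of all tested genes moved from 0.048 to 0.26, and rises made up 65.2% of the calls over all genes in place of 50.4%. The 10 genes moved with it. Then 7 of them rose, HEXIM1 at 0.30 (edgeR adjusted p = 0.0207), CDK9, CCNT1 and ELL2 included, 0 fell in the edgeR test, also at an unadjusted p under 0.05, and CCNT2 was at 0.036. Relative to the median of all tested genes, HEXIM1 was at 0.038 with total counts and at 0.036 with TMM. None of the 10 genes moved by more than 0.0024 between these scalings. A change of scaling moves the log2 fold changes of all genes by nearly the same amount. This closeness therefore follows from subtracting the median and says nothing particular of the 10 genes.

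**Figure D5:**
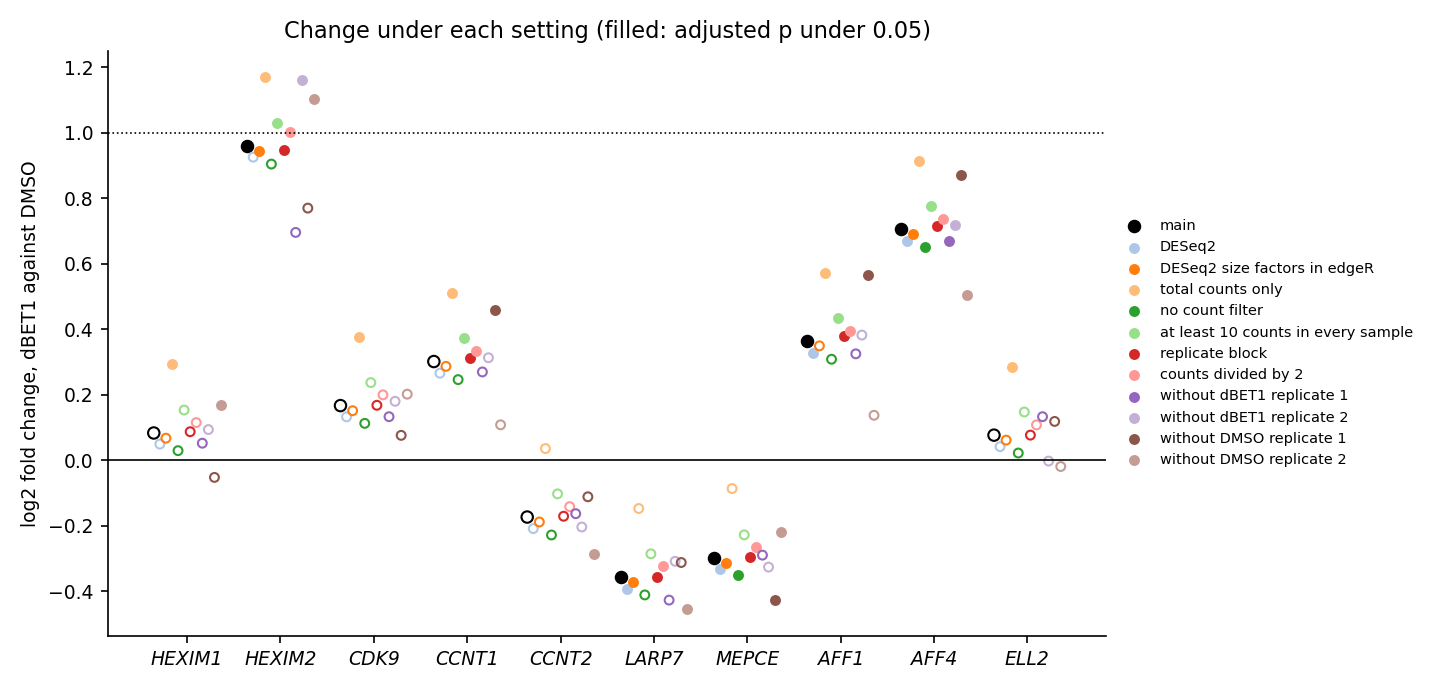
Log2 fold change of each of the 10 genes under TMM scaling and edgeR (black, main) and 11 alternatives, filled where the adjusted p was under 0.05. AFF4 is filled at every setting, all 10 genes lie higher with total counts than with TMM, and the order of the genes changes when a library is left out.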

How the data were processed

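Total RNA from the cells labelled NB4 was sequenced as 150 bp paired-end reads. Alignment to hg38 was done by the authors with HISAT2 2.2.0, which the submitters' processing notes also name, and abundance was estimated with StringTie. The deposited values are raw whole-number counts for each gene. The step from StringTie to counts, its read length and its use of strand are not given in the sources used here, and because of this the counts were also divided by 2 in 1 alternative.

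From these counts, edgeR 4.0.16 in R 4.3.3 was run with TMM factors, filterByExpr and the quasi-likelihood test with group as the only term, and p-values were Benjamini-Hochberg adjusted over 17971 genes. The standard error was the log2 fold change divided by the square root of F. Calls were made at an adjusted p under 0.05, the fold limit was 1 on the log2 scale, and the biological coefficient of variation was 0.123. The procedure was tested on simulated data. These had the same spread for every gene and both groups and few changed genes, unlike the real data. The simulation therefore cannot show how many of the calls here are right. DESeq2 1.42.0 and 10 other settings were alternatives. Coordinates and exon lengths came from GENCODE release 44, with the 10 genes and RN7SK matched by Ensembl identifier (RN7SK by the identifier at its position). Promoter sequences came from the RefSeq table.

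The genes and lists were chosen with earlier results of these data known. Beside the 10 genes and RN7SK, the text names the called genes with the highest and lowest log2 fold change of each list, those past the fold limit, genes overlapping the 10 and the 5 genes most like HEXIM1. CTDSP2, RPAP2, SUPT6H, ICE1, ICE2, AFF2, AFF3, RN7SL1, RN7SL2, RPPH1 and the neighbors ACBD4 and ENSG00000276728 were named beyond this rule, after their values were seen. The chi-square per degree of freedom between replicates was 23.6 for DMSO and 8.14 for dBET1, above counting error. Intervals from counts cover counting error only. The result of 1 gene of the lists is not reported here.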

Additional observations from a re-analysis of the deposited data

How the results depend on the processing

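Of the 10 genes, 3 were higher and 2 lower, and 6 and 35 of the 65 other elongation genes, in the edgeR test with TMM. With total counts only, 7 were higher and 0 lower, 1 was past the fold limit (HEXIM2), and 13 other genes were higher. With no count filter 1 was higher and 1 lower, and 2 other genes were higher, where 33380 genes were tested. With at least 10 counts in every sample 0 were lower and 1 was past the fold limit, as was 1 with counts divided by 2. With DESeq2 3 other genes were higher. The causes were not tested. Leaving out 1 library at a time gave 1 to 3 of the 10 genes higher and 0 to 3 lower, 0 to 1 past the fold limit, 3 to 9 other genes higher and 27 to 38 lower. Without dBET1 replicate 1 only AFF4 of the 10 was called, without dBET1 replicate 2 AFF4 and HEXIM2, and without either of these libraries in turn 3 other genes were higher. Without DMSO replicate 1, MEPCE alone was lower. When a group is left with 1 library, that library is assumed to vary as the other group does. Log2 ratios ranged from -1.07 to -0.65 for HEXIM1 to HEXIM2, 0.40 to 0.57 for CCNT1 to CCNT2, -0.37 to -0.31 for AFF1 to AFF4 and -0.10 to -0.0042 for HEXIM1 plus HEXIM2 to CDK9.

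The libraries share replicate numbers, but deviations of equal numbers correlated at r = 0.043 (10091 genes), so the numbers were not taken as pairs. With the replicate block 4 of the 10 genes were higher (CCNT1 in addition, 0.31) and 2 lower, 0 were past the fold limit, and 4 other genes were higher and 34 lower. With 2 libraries a group, SDs rest on 2 values, and depth limits HEXIM2 and RN7SK most, with 43 to 134 counts in a library.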
